A study of Mus musculus with 23 samples.

Results

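Expression of 7 genes that handle itaconate, nitric oxide and arginine was followed in cultured mouse macrophages treated with a saturated fatty acid, a monounsaturated fatty acid or bacterial lipopolysaccharide. The members are Acod1 (listed in older tables as Irg1), Nos2, Gch1, Slc7a2, Arg1, Arg2 and Odc1. They were chosen by gene symbol, with earlier results of these data known. All 7 were among the 19938 genes measured by a probe set with a single symbol. For a gene with several such probe sets, the probe set of highest mean over the 23 arrays was used.

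Bone marrow of wild type C57Bl/6 mice had been turned into macrophages by culture for 6 days with M-CSF, the growth factor of macrophages, at 10 ng/mL. They were treated 1 to 3 days after its removal. Where each group lay within this range is not given, so the groups may differ in it. Vehicle was bovine serum albumin (BSA) at 125 µM for 5 h (n = 3). The LPS group (n = 4), whose agonist acts through TLR4, received 1 ng/mL over 5 h. Whether the LPS medium also held BSA is not recorded here, so comparisons with LPS may differ in BSA as well. The acids were added at 250 µM and left for 5 h or for 20 h, in 4 arrays per acid and time point. Stearic acid (SA) is saturated, and oleic acid (OA) is as long but carries a cis unsaturated bond. Both acids were complexed with fatty acid-free BSA at a molar ratio of 2 to 1. For vehicle and LPS the labels say 5 h, but the text of the series says 4 h. There is no vehicle or LPS group of 20 h, so a comparison of 20 h with vehicle combines treatment with time in culture. A change from 5 h to 20 h with an acid likewise combines longer exposure with time in culture. The labels call the replicates wells and the series text calls them biological. The spread behind each p-value is therefore that between these samples only, and may be technical.

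Values are log2 expression on a scale made common to all arrays, so a difference of 1 is a 2-fold change. The array medians over all probe sets lay between 3.98 and 4.12, and a level near or below them is close to the background of the array, where the size of a change is uncertain. The mean level of 9 macrophage markers (Adgre1, Csf1r, Itgam, Cd68, Lyz2, Fcgr1, Mertk, Cd14 and Spi1) lay between 9.12 and 9.99 on every array, with no marker below the array median in any group. It was lowest in 20 h SA (9.12 to 9.22), against 9.86 to 9.88 in 20 h OA. The mean of 12 neutrophil markers ran from 5.61 to 6.52. Means of dendritic, lymphoid, erythroid and mast, and stromal markers stayed at or below 4.54. Replicate 2 of 20 h SA stood apart: the SD over genes of its deviations from the group mean was 0.215, against 0.129 to 0.185 on the other 22 arrays. In such bulk samples, fewer expressing cells and less RNA per cell cannot be told apart.

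Activated macrophages rebuild the use of the citrate cycle and of arginine. Acod1 encodes the mitochondrial enzyme that turns cis-aconitate, an intermediate of the citrate cycle, into itaconate, which inhibits succinate dehydrogenase and has antibacterial and anti-inflammatory actions. Nos2, the inducible nitric oxide synthase, makes nitric oxide and citrulline from arginine and needs tetrahydrobiopterin, whose synthesis begins with GTP cyclohydrolase, the product of Gch1. Slc7a2 encodes a cationic amino acid transporter that brings arginine into the cell. Arg1 in the cytosol and Arg2 in mitochondria split arginine into urea and ornithine and so compete with Nos2 for substrate. Odc1 turns ornithine into putrescine, the first polyamine. Only RNA was measured here, neither the enzymes nor their products.

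The bases before the transcription start of Acod1 and Gch1 are shown because these were the members that differed between the acids at both times. The windows come from RefSeq (GRCm38.p6), are 250 bases long, end at the base before the start and are written on the gene's own strand. Capitals mark the matches of 10 motifs searched on both strands. Acod1 lies at chr14:103046762-103047011 on the plus strand, and Gch1 at chr14:47189414-47189663 on the minus strand.
Acod1: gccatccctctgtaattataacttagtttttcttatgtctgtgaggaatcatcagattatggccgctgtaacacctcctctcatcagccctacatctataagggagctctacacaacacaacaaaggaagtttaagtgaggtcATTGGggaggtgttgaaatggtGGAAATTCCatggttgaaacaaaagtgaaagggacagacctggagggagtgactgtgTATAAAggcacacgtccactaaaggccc
Gch1: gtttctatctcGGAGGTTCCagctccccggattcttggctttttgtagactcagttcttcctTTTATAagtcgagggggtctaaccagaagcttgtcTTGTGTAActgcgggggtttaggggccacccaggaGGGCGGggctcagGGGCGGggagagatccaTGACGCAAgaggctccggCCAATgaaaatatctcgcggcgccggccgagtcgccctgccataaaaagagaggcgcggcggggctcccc

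The motifs were GGNNNTTCC (NF-kB type), GAAANNGAA (IRF type), TTNNGNAA (C/EBP type), TGANGNAA (ATF4-CHOP type), TGACGTCA (CRE), TGANTCA (AP-1 type), CACGTG (E-box), TATAAA of the TATA box, CCAAT of the box of that name and GGGCGG (GC box). The Acod1 window held TATAAA from 28 to 23 bases before the start, GGNNNTTCC from 85 to 77 bases before it, where the match reads on both strands, and CCAAT on the minus strand from 107 to 103. The Gch1 window held GGNNNTTCC from 239 to 231, TATAAA on the minus strand from 188 to 183, TTNNGNAA from 153 to 146, GGGCGG from 118 to 113 and from 105 to 100, TGANGNAA from 88 to 81 and CCAAT from 70 to 66. In both windows no match overlapped a match of another motif. Among 32851 promoter windows of this length, 15.7% held GGNNNTTCC, 36.8% TTNNGNAA, 14.1% TGANGNAA, 12.4% TATAAA, 33.8% CCAAT and 32.7% GGGCGG. The shares of the motifs that neither window held were 7.13% for GAAANNGAA, 1.55% for TGACGTCA, 6.75% for TGANTCA and 6.02% for CACGTG. The G and C content was 44.4% in the Acod1 window and 59.2% in the Gch1 window, against a median of 52.4% over all windows. The window of Odc1, which is not shown, held GGGCGG at 4 places and none of the other motifs. A match is a description of the letters and not a site of binding. Of the 7 members, 3 had an entry in the table of windows.

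The groups separated the members into those that moved with LPS and those that did not. Acod1, Nos2, Gch1 and Slc7a2 rose with LPS, Acod1 alone also passed the test for SA against vehicle at 5 h, and Arg1 and Arg2 stayed near the array medians in every group. The means of the 6 groups spanned 6.99 for Acod1, 5.30 for Slc7a2, 3.77 for Nos2, 2.63 for Gch1, 0.55 for Arg2, 0.47 for Arg1 and 0.43 for Odc1.

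**Figure D1:**
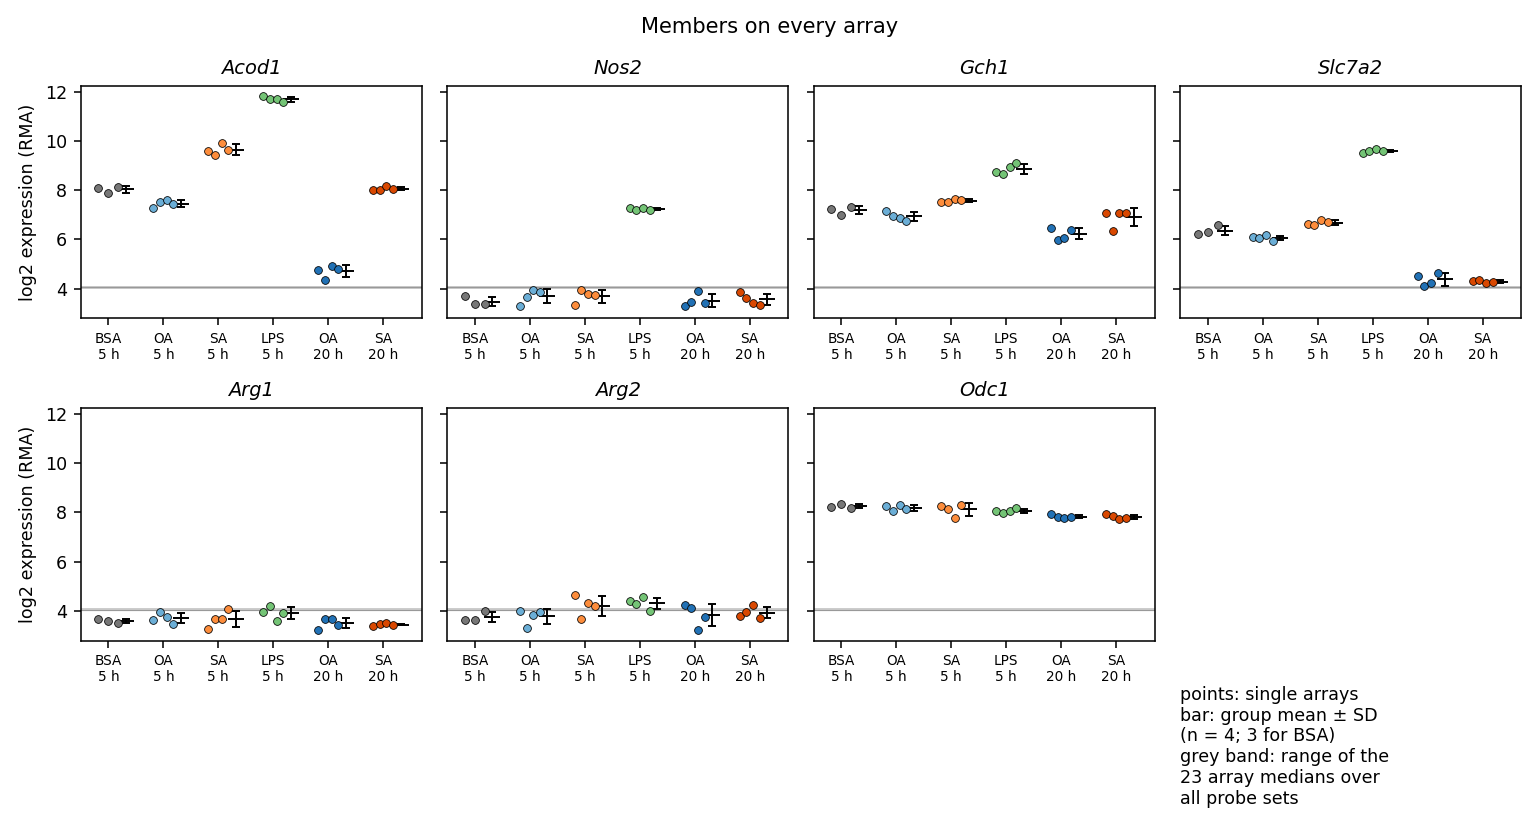
Log2 expression (y axis) of each member in the 6 groups (x axis); points are single arrays, the bar beside them is the group mean ± SD (n = 4, 3 for BSA), and the grey band is the range of the 23 array medians, 3.98 to 4.12. Acod1 ran from a mean of 4.71 in 20 h OA to 11.70 in LPS, all arrays of Nos2 outside LPS lay below the band, and the arrays of Arg1 and Arg2 ran from 3.22 to 4.66.

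Acod1 followed the acid, the time and LPS. On the vehicle arrays it read 8.10, 7.89 and 8.13 (mean 8.04 ± 0.13, SD, n = 3). LPS arrays read 11.81, 11.73, 11.69 and 11.58 (11.70 ± 0.10, SD, n = 4). At 5 h, SA arrays read 9.58, 9.43, 9.94 and 9.66 (9.65 ± 0.21), above every vehicle array. The OA arrays of 5 h read 7.26, 7.50, 7.59 and 7.44 (7.45 ± 0.14), all below the lowest vehicle array. At 20 h, SA arrays read 8.01, 8.02, 8.16 and 8.06 (8.06 ± 0.07), within reach of the vehicle arrays of 5 h. The OA arrays of 20 h read 4.77, 4.35, 4.93 and 4.81 (4.71 ± 0.25), the lowest of all groups and close to the array medians. In the order of group means, only vehicle and 20 h SA overlapped. Each other pair of neighbours had no array in common range.

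SA exceeded OA in Acod1 by 2.20 ± 0.12 (SE) at 5 h, a 4.60-fold difference (limma, adjusted p = 6.26e-12), and by 3.35 ± 0.12 at 20 h, a 10.2-fold difference (adjusted p = 3.08e-16). The gap between the acids was wider at 20 h by 1.14 ± 0.16 (interaction, adjusted p = 3.89e-05). It widened while Acod1 was lower at 20 h in both acid groups. From 5 h to 20 h the level fell by 1.59 with SA (adjusted p = 2.14e-10) and by 2.73 with OA (adjusted p = 5.03e-14). Because 20 h OA lay near the array medians, the 20 h fold between the acids is of uncertain size.

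Against vehicle at 5 h, Acod1 rose 12.7-fold with LPS (3.66 ± 0.12, adjusted p = 4.5e-17) and 3.06-fold with SA (1.61 ± 0.12, adjusted p = 9.81e-09). SA stayed below LPS (-2.05 ± 0.12, adjusted p = 5.33e-13). OA differed from vehicle by -0.59 (95% interval -0.85 to -0.33), which did not pass the test over all genes (unadjusted p = 8.8e-05, adjusted p = 0.0835). It passed with a variance trend and robust moderation (adjusted p = 0.00696). Against vehicle of 5 h, 20 h OA was lower (-3.32 ± 0.12, adjusted p = 3.45e-15). The corresponding difference of 20 h SA was 0.02 (95% interval -0.24 to 0.28, adjusted p = 0.949).

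Nos2 rose with LPS and passed the test in no comparison among vehicle and fatty acid groups. LPS arrays read 7.27, 7.20, 7.28 and 7.21 (7.24 ± 0.04, SD, n = 4), and vehicle arrays 3.68, 3.36 and 3.37 (3.47 ± 0.18, n = 3). The 16 fatty acid arrays ran from 3.29 to 3.96, below all array medians, with group means of 3.70 ± 0.29 in 5 h OA, 3.69 ± 0.27 in 5 h SA, 3.51 ± 0.26 in 20 h OA and 3.56 ± 0.23 in 20 h SA. No fatty acid array came within 3 log2 units of the LPS arrays, and the vehicle and fatty acid groups overlapped with each other.

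The rise with LPS was 3.77 ± 0.16 (SE), or 13.6-fold, at an adjusted p of 3.49e-15, though its size is uncertain because the vehicle lay near background. SA lay below LPS (-3.55 ± 0.15, adjusted p = 2.56e-15). SA and OA differed in Nos2 by -0.01 at 5 h (95% interval -0.32 to 0.30, adjusted p = 0.989) and by 0.05 at 20 h (-0.26 to 0.36, adjusted p = 0.902). SA differed from vehicle by 0.22 (-0.12 to 0.56, adjusted p = 0.638) and OA by 0.23 (-0.11 to 0.57, adjusted p = 0.94).

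Gch1, the enzyme that opens synthesis of the Nos2 cofactor, was expressed in every group and differed between the acids at both times. Vehicle arrays read 7.25, 7.01 and 7.32 (7.19 ± 0.16, SD, n = 3), and LPS arrays 8.75, 8.67, 8.93 and 9.13 (8.87 ± 0.20, n = 4). At 5 h, SA arrays read 7.54, 7.52, 7.63 and 7.62 (7.58 ± 0.05) and OA arrays 7.15, 6.96, 6.86 and 6.76 (6.93 ± 0.17). The SA arrays of 5 h lay above every vehicle and OA array and below every LPS array. At 20 h, SA arrays read 7.08, 6.35, 7.09 and 7.08 (6.90 ± 0.37), and OA arrays 6.47, 5.99, 6.08 and 6.40 (6.24 ± 0.24). The groups of 20 h overlapped through replicate 2 of SA, the array that stood apart over all genes. The SA and OA groups of 20 h, 5 h OA and vehicle overlapped as neighbours in order of level.

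SA exceeded OA in Gch1 by 0.65 ± 0.15 (SE) at 5 h (1.56-fold, adjusted p = 0.00682) and by 0.66 ± 0.15 at 20 h (1.58-fold, adjusted p = 0.00174). Without replicate 2 of 20 h SA the 20 h difference was 0.85 (adjusted p = 1.89e-05). The change of this gap between the times was 0.02 (95% interval -0.41 to 0.45, adjusted p = 0.987). From 5 h to 20 h, Gch1 fell by 0.68 with SA (adjusted p = 0.0018) and by 0.70 with OA (adjusted p = 0.00427). LPS raised it 3.20-fold over vehicle (1.68 ± 0.16, adjusted p = 7.62e-09), and SA lay below LPS (-1.29 ± 0.15, adjusted p = 1.68e-07). SA differed from vehicle by 0.39 (95% interval 0.06 to 0.71, adjusted p = 0.245), which did not pass, and OA by -0.26 (-0.59 to 0.07, adjusted p = 0.94). The 20 h OA group was below vehicle of 5 h (-0.96 ± 0.16, adjusted p = 0.000302), and 20 h SA differed from it by -0.29 (-0.62 to 0.03, adjusted p = 0.266).

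Slc7a2, the arginine transporter, rose with LPS and was low at 20 h with either acid. Vehicle arrays read 6.20, 6.30 and 6.57 (6.36 ± 0.19, SD, n = 3), and LPS arrays 9.53, 9.60, 9.66 and 9.58 (9.59 ± 0.05, n = 4). At 5 h, SA arrays read 6.64, 6.59, 6.80 and 6.70 (6.68 ± 0.09), just above the highest vehicle array, and OA arrays 6.08, 6.07, 6.17 and 5.95 (6.07 ± 0.09), just below the lowest. At 20 h, SA arrays read 4.30, 4.35, 4.22 and 4.27 (4.29 ± 0.06) and OA arrays 4.52, 4.10, 4.23 and 4.65 (4.37 ± 0.25). Both groups of 20 h overlapped and lay near the array medians, and all other neighbours in order of level were apart.

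LPS raised Slc7a2 9.40-fold over vehicle (3.23 ± 0.11, SE, adjusted p = 5.29e-17), and SA lay below LPS (-2.91 ± 0.10, adjusted p = 8.19e-17). SA exceeded OA by 0.61 ± 0.10 at 5 h (1.53-fold, adjusted p = 0.000289). At 20 h the acids differed by -0.09 (95% interval -0.30 to 0.13, adjusted p = 0.698). The gap between the acids therefore changed by -0.70 ± 0.15 from 5 h to 20 h (interaction, adjusted p = 0.00287). Over that time Slc7a2 fell by 2.40 with SA (adjusted p = 2.15e-14) and by 1.69 with OA (adjusted p = 4.07e-11). Each 20 h group was also below vehicle of 5 h, SA (-2.07 ± 0.11, adjusted p = 8.15e-13) and OA (-1.99 ± 0.11, adjusted p = 9.63e-12). At 5 h neither acid passed the test against vehicle: SA differed by 0.32 (95% interval 0.09 to 0.55, adjusted p = 0.139) and OA by -0.29 (-0.52 to -0.06, adjusted p = 0.785).

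The arginases showed no change that passed the test in any of the 11 comparisons. Arg1 ran from 3.23 to 4.22 over the 23 arrays. Its group means lay between 3.45 ± 0.03 (20 h SA) and 3.92 ± 0.25 (LPS), all below the array medians, and every pair of neighbours in order of level overlapped. Arg2 ran from 3.22 to 4.66, with group means from 3.76 ± 0.21 (vehicle) to 4.31 ± 0.23 (LPS), again with overlap between all neighbours. Vehicle and LPS, which are not neighbours, did not overlap: the highest vehicle array read 4.0051 and the lowest LPS array 4.0097. Levels this close to background leave the size of any difference uncertain.

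SA and OA differed in Arg1 by -0.03 at 5 h (95% interval -0.33 to 0.26, adjusted p = 0.953) and by -0.05 at 20 h (-0.35 to 0.25, adjusted p = 0.89). In Arg2 they differed by 0.43 at 5 h (0.01 to 0.86, unadjusted p = 0.0452, adjusted p = 0.287) and by 0.09 at 20 h (-0.33 to 0.52, adjusted p = 0.851). The 5 h SA arrays of Arg2 were spread from 3.67 to 4.66 and overlapped the OA arrays of 3.32 to 3.99. LPS differed from vehicle by 0.55 in Arg2 (0.09 to 1.01, adjusted p = 0.0808) and by 0.34 in Arg1 (0.02 to 0.66, adjusted p = 0.134). Each of these LPS differences passed under a single alternative setting: Arg2 in a fit of only the compared groups (adjusted p = 0.0174) and Arg1 without replicate 3 of LPS (adjusted p = 0.0497).

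Odc1, the ornithine decarboxylase, was the steadiest of the well expressed members. Vehicle arrays read 8.20, 8.34 and 8.20 (8.25 ± 0.08, SD, n = 3). The 5 h groups stood at 8.20 ± 0.12 with OA, 8.12 ± 0.25 with SA and 8.07 ± 0.09 with LPS (n = 4 each), and the 20 h groups at 7.84 ± 0.07 with OA and 7.82 ± 0.09 with SA. The arrays of 20 h, from 7.72 to 7.95, lay below all vehicle, OA and LPS arrays of 5 h and overlapped SA of 5 h, where replicate 3 read 7.77. SA and OA differed by -0.07 at 5 h (95% interval -0.28 to 0.14, adjusted p = 0.816) and by -0.02 at 20 h (-0.22 to 0.19, adjusted p = 0.954). LPS differed from vehicle by -0.18 (-0.41 to 0.04, adjusted p = 0.269).

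Odc1 was lower in 20 h SA than in vehicle of 5 h (-0.43 ± 0.11, SE, adjusted p = 0.00593), a call kept under all 17 alternatives. The other falls were less firm. OA of 20 h was below vehicle of 5 h (-0.41 ± 0.11, adjusted p = 0.0232, called under 10 of 17 alternatives). Odc1 fell from 5 h to 20 h by 0.30 with SA (adjusted p = 0.0457, called under 7 of 18) and by 0.36 with OA (adjusted p = 0.0394, called under 8 of 18). A second probe set of Odc1 read lower, with group means from 6.65 ± 0.23 in 20 h SA to 7.32 ± 0.07 in vehicle. In a fit of all probe sets it was lower in 20 h SA than in vehicle (-0.67 ± 0.16, adjusted p = 0.00723). Its differences between 20 h and 5 h were -0.43 with SA (adjusted p = 0.0776) and -0.30 with OA (adjusted p = 0.378), and 20 h OA differed from vehicle by -0.50 (adjusted p = 0.13).

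**Figure D2:**
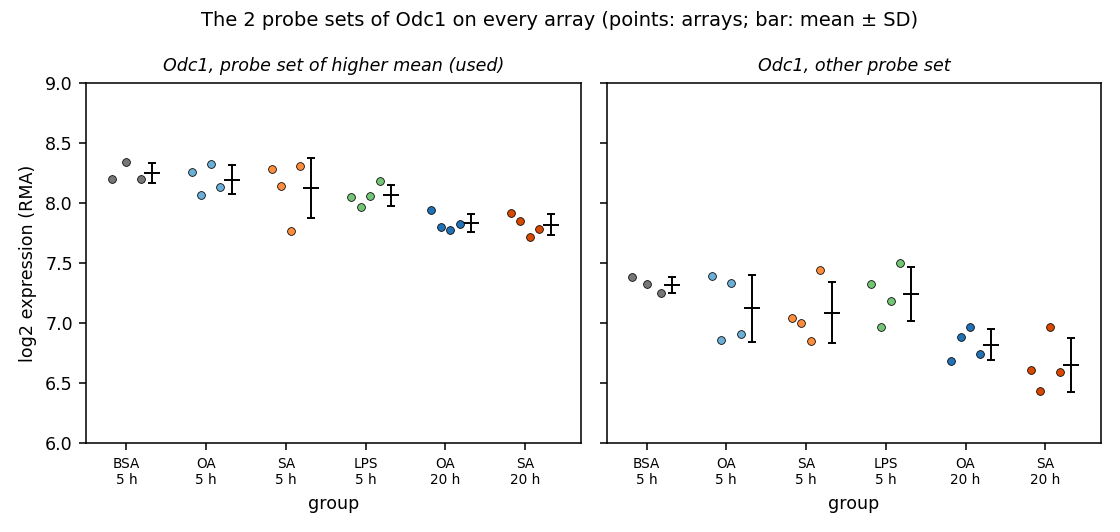
Log2 expression (y axis, starting at 6) of both probe sets of Odc1 in the 6 groups (x axis); points are arrays and bars the mean ± SD (n = 4, 3 for BSA). On the probe set that was used, the 20 h arrays sit between 7.72 and 7.95, and on the other the lowest group mean is 6.65 in 20 h SA.

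Read against all 19938 genes, the members were called more often than the background in several comparisons. The members, and the gene lists further below, were chosen with earlier results of these data known. The part of that choice in any excess over the background was not tested. The median of the 7 log2 differences is given beside each count, with that of all genes. SA against OA at 5 h called 3 of 7 members, all higher with SA (Acod1, Gch1 and Slc7a2), where 5.67% of all genes were called and 3.3% were higher. The members' median was 0.43, against 0.01 over all genes. At 20 h, 2 of 7 were called, both higher (Acod1 and Gch1), where 16.7% of all genes were called and 7.72% were higher, and the medians were 0.05 and 0.03. The interaction called 1 member in each direction, Acod1 upwards and Slc7a2 downwards, where 4.98% of all genes were called, 1.58% upwards and 3.4% downwards. Groups without overlap counted 3 members at 5 h, where 10.4% of all genes had none, and 1 at 20 h, where 20.2% had none.

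**Figure D3:**
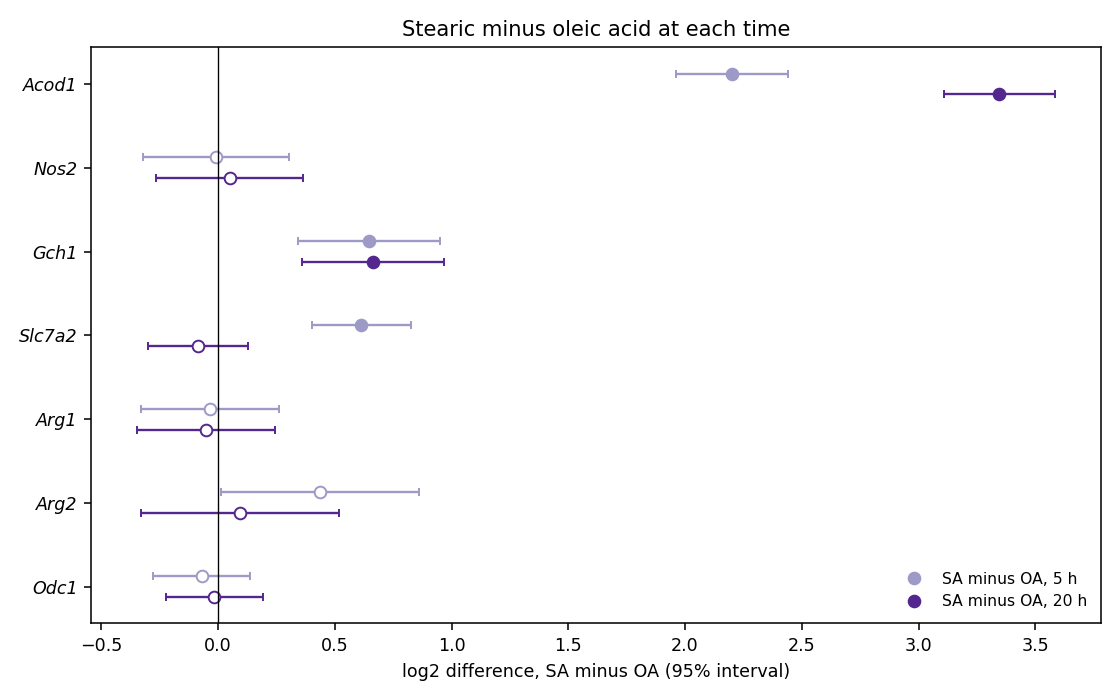
Log2 difference of SA minus OA (x axis) for each member (y axis) at 5 h and 20 h, with 95% intervals; filled points passed the test at an adjusted p under 0.05 and open points did not (n = 4 arrays per group). Acod1 stands at 2.20 and 3.35, Gch1 at 0.65 and 0.66, and Slc7a2 at 0.61 and -0.09.

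LPS against vehicle called 4 of 7 members, all higher, where 22.4% of all genes were called and 9.22% were higher. The members' median difference was 1.68, against -0.02 over all genes. All members but Arg1, 6 in number, had no overlap between the groups, as had 29.8% of all genes. Of these, Arg2 (higher with LPS) and Odc1 (lower) were not called. SA against vehicle at 5 h called only Acod1, where 3.33% of all genes were called and 1.94% were higher, with medians of 0.32 and 0.01. In that comparison 3 members (Acod1, Gch1 and Slc7a2) had no overlap, as had 13.9% of all genes. OA against vehicle called no member, where 0.0702% of all genes (14 genes) were called. At an unadjusted p under 0.05, 2 members (Acod1 and Slc7a2) were lower with OA, where 2.79% of all genes were, and the same 2 had no overlap with vehicle, as had 7.02% of all genes. These comparisons share the vehicle arrays, so their agreement is no separate evidence. SA against LPS called 4 members, all lower with SA, where 22.1% of all genes were called and 9.11% were higher in LPS.

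**Figure D4:**
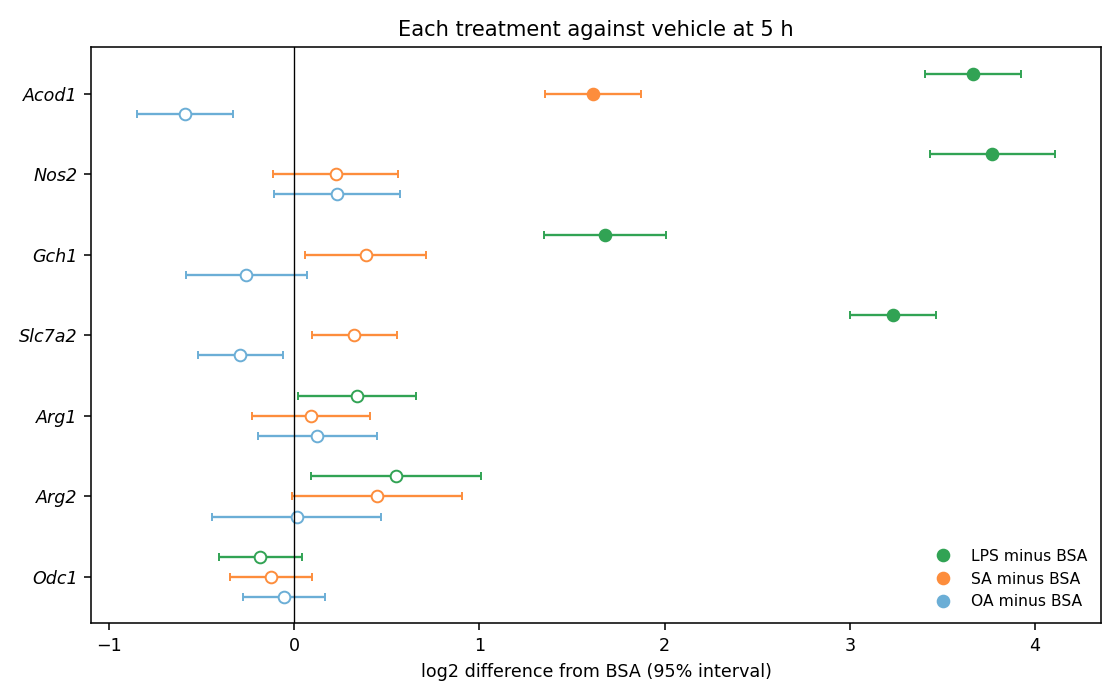
Log2 difference from BSA (x axis) for each member (y axis) under LPS, SA and OA at 5 h, with 95% intervals; filled points passed the test at an adjusted p under 0.05 (n = 4 arrays against 3). With SA, Acod1 stands at 1.61 and Nos2 at 0.22, while with LPS they stand at 3.66 and 3.77.

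From 5 h to 20 h, 4 of 7 members fell with SA (Acod1, Gch1, Slc7a2 and Odc1), where 12.8% of all genes were called and 6.57% fell. The same 4 fell with OA, where 4.38% of all genes were called and 1.8% fell. Against vehicle of 5 h, 2 members (Slc7a2 and Odc1) were lower in 20 h SA, where 15.9% of all genes were called and 8.02% were lower. In 20 h OA 4 members (Acod1, Gch1, Slc7a2 and Odc1) were lower, where 4.7% of all genes were called and 2.11% were lower. In each of these counts of 4, the call of Odc1 was not firm. It was kept under 7 of 18 alternatives for the fall with SA, 8 of 18 for the fall with OA and 10 of 17 for 20 h OA against vehicle. No member was higher at 20 h in any of these comparisons. Among macrophage markers, 6 of 9 fell and 1 rose from 5 h to 20 h with SA. With OA over that time, Cd14 fell while Mertk, Fcgr1 and Adgre1 rose. In 20 h SA, 7 of 9 were below 20 h OA, at a median difference of -0.63, where 8.95% of all genes were lower. Among neutrophil markers, 7 of 12 rose from 5 h to 20 h with SA and 3 with OA. Of all genes, 6.23% rose with SA and 2.58% with OA. SA against OA at 20 h called none of the 12. The part of these markers in the members' values was not tested. Lying near the array medians, the 20 h levels of Slc7a2 with both acids and of Acod1 with OA leave the size of the falls uncertain.

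The genes most like each member were taken by Pearson's r over the 23 arrays among genes whose group means spanned at least 1. The arrays fall into 6 groups, so r mostly follows the order of the groups, and no p is given. For Acod1 these were Clec4e (0.98), a receptor for mycobacterial glycolipid and dead cells, Zc3h12c (0.97), Cxcl2 (0.97), a neutrophil-attracting chemokine, Lmo4 (0.97) and Tnfaip3 (0.97), the NF-kB inhibitor A20. Clec4e, for example, had a mean level of 8.93 in 5 h SA and 7.26 in 5 h OA, and of 8.29 and 4.56 at 20 h. For Nos2 they were Tnfsf15, Vcan and Mir155 (0.99 each) and Itgb8 and Iigp1 (0.98 each), of which Iigp1 is an interferon-inducible GTPase. Mir155 had a mean level of 7.63 in LPS and 3.38 to 3.87 in the other groups.

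For Gch1 the genes were Saa3 (0.98), an acute phase protein, and Fabp3, Psme2, Cxcl10 and Cflar (0.97 each). For Slc7a2 they were Ehd1, Cd40, Nlrp3, AW112010 and Mmp14 (0.99 each), with Cd40 a costimulatory receptor and Nlrp3 an inflammasome sensor. Nlrp3 had a mean level of 9.51 in LPS, 7.50 in 5 h SA, 5.47 in 20 h OA and 5.16 in 20 h SA. For Odc1 the values were lower, from 0.76 for Id3 and 0.78 for Radx to 0.80 for Id1, 0.81 for Ankrd28 and 0.83 for Pls3. No gene exceeded 0.67 for Arg1 (Cav1) or 0.64 for Arg2 (Pvr). Among the members themselves, r was 0.94 between Acod1 and Gch1, 0.93 between Gch1 and Slc7a2, 0.86 between Nos2 and Slc7a2, 0.74 between Acod1 and Nos2, and 0.06 between Nos2 and Odc1.

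Among the other genes of arginine handling, both transporters and enzymes differed between the acids. Of 18 measured, SA against OA at 20 h called 4 higher and 3 lower (median 0.06; 38.9% called, against 16.7% of all genes). Slc3a2, the heavy chain shared by several amino acid transporters, was higher by 1.08 ± 0.08 (SE, adjusted p = 1.78e-10), with means of 9.97 ± 0.04 in SA and 8.89 ± 0.09 in OA. Slc7a1, the other main cationic amino acid transporter beside Slc7a2, was higher by 0.93 ± 0.08 (adjusted p = 4.38e-09), at 6.49 ± 0.07 and 5.56 ± 0.09. Lower with SA were Ddah2 (-0.79 ± 0.12, adjusted p = 1.99e-05) and Slc7a7, an exporter of cationic amino acids (-0.77 ± 0.10, adjusted p = 3.67e-06). The other 3 called, given for completeness, were the enzymes Aldh18a1 (0.57, adjusted p = 0.00135) and Oat (0.44, adjusted p = 0.000742) and the lysosomal arginine sensor Slc38a9 (-0.31, adjusted p = 0.034). At 5 h, 2 were higher and 1 lower (median 0.03; 16.7% called, against 5.67% of all genes): Slc7a1 by 1.08 ± 0.08 (adjusted p = 1.76e-09), Slc3a2 by 0.52 ± 0.08 (adjusted p = 8.51e-05) and Slc38a9 by -0.37 ± 0.10 (adjusted p = 0.0262, lost in 6 of 8 fits that each left out 1 array, at up to 0.0874).

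Against vehicle at 5 h, SA raised 2 of the 18, where 3.33% of all genes were called. These were Slc7a1 by 0.80 ± 0.09 (adjusted p = 2.33e-06) and Slc3a2 by 0.52 ± 0.09 (adjusted p = 0.000348), with a list median of 0.02. LPS raised 1, Slc7a7, by 1.36 ± 0.11 (adjusted p = 5.73e-10), and lowered 2 (median -0.05), Slc38a9 (-0.40 ± 0.11, adjusted p = 0.00802) and Asl, which releases arginine from argininosuccinate (-0.33 ± 0.11, adjusted p = 0.0356, lost in 5 of 7 fits that each left out 1 array, at up to 0.129). The share of the 18 that was called with LPS lay below the 22.4% of all genes. Slc7a1 thus stood at 5.88 ± 0.07 in vehicle, 6.68 ± 0.11 in 5 h SA, 6.12 ± 0.10 in LPS and 5.60 ± 0.10 in 5 h OA, while Slc7a2 had its highest level in LPS. OA against vehicle called none of the 18. The interaction called 2 upwards (Slc3a2 by 0.56, adjusted p = 0.0021, and Oat by 0.44, adjusted p = 0.0444, lost in 11 of 16 fits that each left out 1 array) and 2 downwards (Ddah2 by -0.93, adjusted p = 0.000679, and Slc7a7 by -0.91, adjusted p = 0.00016), where 4.98% of all genes were called. Ass1 was not used here, since no probe set carried its symbol alone.

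**Figure D5:**
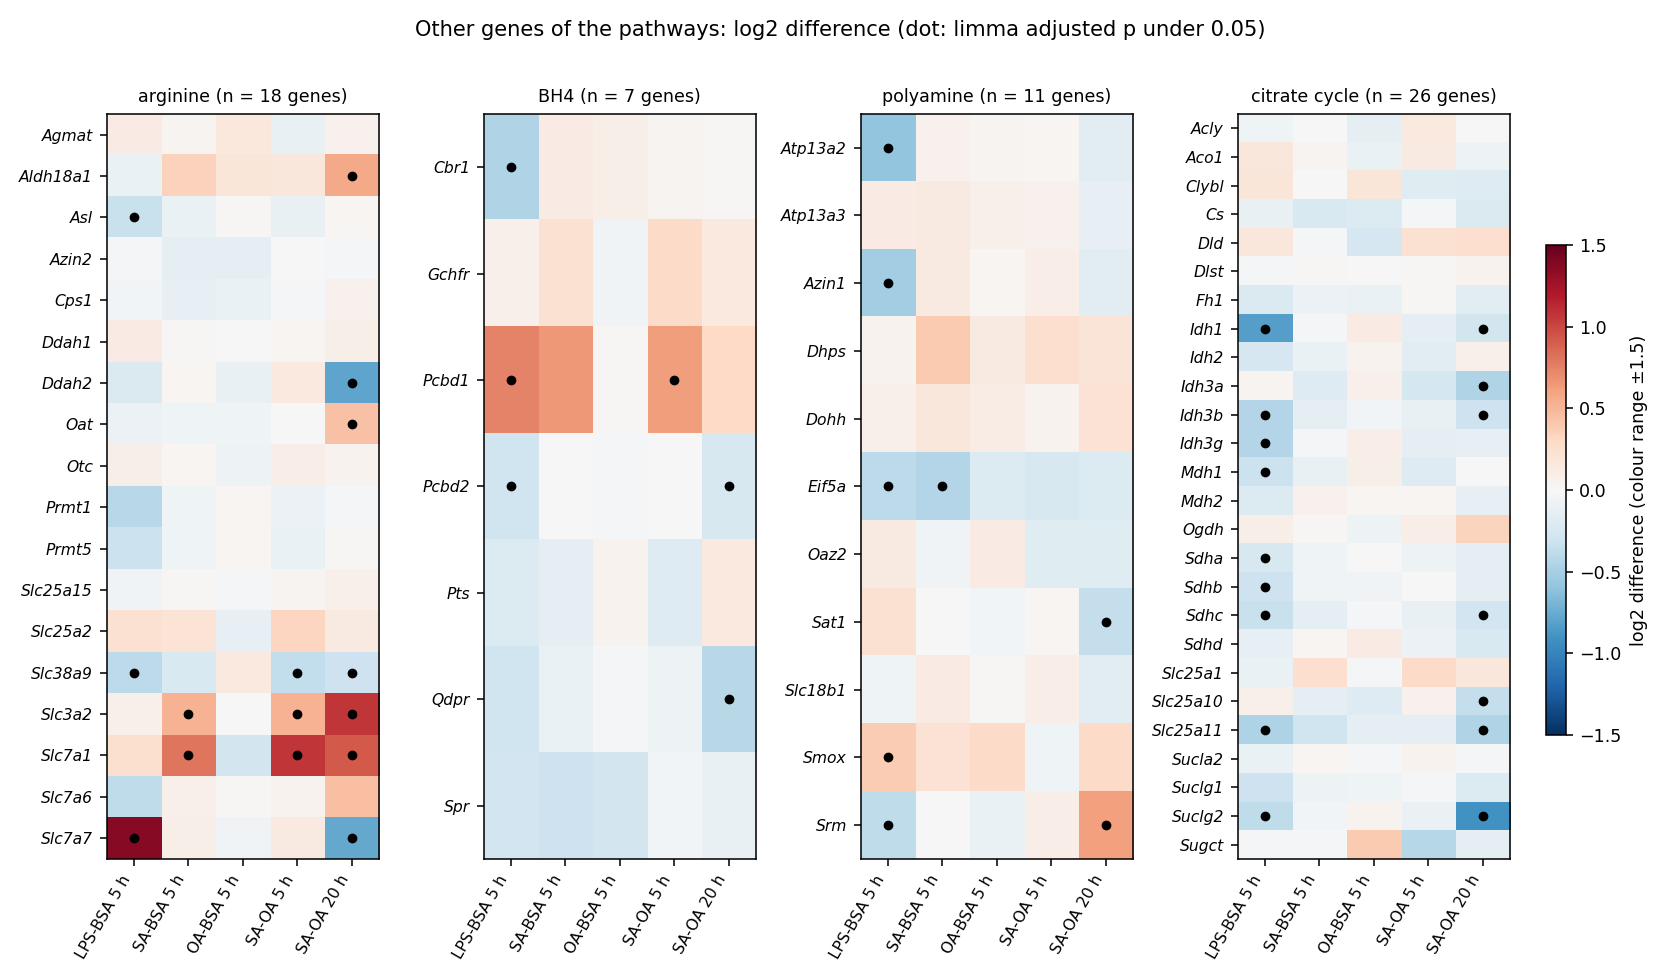
Log2 differences (colour, from -1.5 to 1.5) of the measured genes of arginine handling (18), tetrahydrobiopterin or BH4 (7), polyamines (11) and the citrate cycle (26) in 5 comparisons (columns); a dot marks an adjusted p under 0.05. Slc7a1 and Slc3a2 carry dots for SA against BSA and against OA at both times, and Slc7a7 carries one upwards for LPS and one downwards for SA against OA at 20 h.

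Around Gch1, 7 genes of tetrahydrobiopterin synthesis and recycling were measured. LPS against vehicle called 1 higher and 2 lower (median -0.29; 42.9% called, against 22.4% of all genes): Pcbd1, a recycling enzyme, by 0.75 ± 0.19 (adjusted p = 0.0043), Pcbd2 by -0.30 ± 0.09 (adjusted p = 0.0118, and 0.0595 without replicate 3 of vehicle) and Cbr1 by -0.46 ± 0.16 (adjusted p = 0.0467, lost in 5 of 7 fits that each left out 1 array, at up to 0.344 without replicate 2 of vehicle). SA against OA called only Pcbd1 at 5 h (0.63 ± 0.17, adjusted p = 0.032, lost in 5 of 8 fits that each left out 1 array), at a list median of 0.01, where 5.67% of all genes were called. At 20 h it called 2 lower (median 0.01; 28.6% called, against 16.7%), the dihydropteridine reductase Qdpr (-0.41 ± 0.11, adjusted p = 0.0113) and Pcbd2 (-0.24 ± 0.08, adjusted p = 0.0367), and Pcbd2 was lost in 6 of 8 fits that each left out 1 array, among them that without replicate 2 of 20 h SA. SA and OA against vehicle called none of the 7 at 5 h, with medians of -0.01 and -0.02. Pcbd1 lay near the array medians, at 3.47 ± 0.25 in vehicle and 4.22 ± 0.15 in LPS.

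Around Odc1, 11 polyamine genes were measured. LPS called 1 higher and 4 lower (median 0.06; 45.5% called, against 22.4% of all genes). Atp13a2, a lysosomal polyamine exporter, was lower (-0.59 ± 0.09, adjusted p = 8.05e-06), and Azin1, the antizyme inhibitor that protects Odc1 protein (-0.52 ± 0.08, adjusted p = 3.38e-05). Eif5a, the protein that carries hypusine, was lower (-0.39 ± 0.12, adjusted p = 0.0182, but 0.0625 without replicate 2 of vehicle and 0.0595 without replicate 3 of LPS). Smox, spermine oxidase, was higher by 0.38 ± 0.12 (adjusted p = 0.0285, lost in 4 of 7 fits that each left out 1 array). SA against OA called none at 5 h (median 0.06). At 20 h it called 1 higher and 1 lower (median -0.15), and this 18.2% of the list was close to the 16.7% of all genes: Srm, spermidine synthase, by 0.62 ± 0.11 (adjusted p = 0.00024), and Sat1, which acetylates polyamines for export, by -0.36 ± 0.12 (adjusted p = 0.0365, lost in 5 of 8, and 0.184 without replicate 2 of 20 h SA). SA against vehicle called Eif5a alone, lower (-0.44 ± 0.12, adjusted p = 0.0392, lost in 6 of 7), where 3.33% of all genes were called. OA against vehicle called none (median 0.04).

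Around Acod1, 26 genes of the citrate cycle and its carriers were measured. LPS against vehicle called 9 lower and none higher (median -0.16; 34.6% called, against 22.4% of all genes; 13.2% of all genes were lower). Idh1, a cytosolic isocitrate dehydrogenase, was lower (-0.82 ± 0.09, adjusted p = 4e-08). Slc25a11, the oxoglutarate carrier, was lower (-0.46 ± 0.10, adjusted p = 0.00124), and the isocitrate dehydrogenase subunits Idh3b and Idh3g were lower as well (Idh3b -0.44 ± 0.11, adjusted p = 0.00473, and Idh3g -0.44 ± 0.08, adjusted p = 0.000236). Sdha, Sdhb and Sdhc, subunits of succinate dehydrogenase, were lower by smaller amounts (-0.24 ± 0.08, adjusted p = 0.0368, -0.31 ± 0.08, adjusted p = 0.00349, and -0.34 ± 0.08, adjusted p = 0.00212). These 3 were singled out after their values were seen, and the call of Sdha was lost in 4 of 7 fits that each left out 1 array, at up to 0.164.

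SA against OA called none of the 26 at 5 h (median -0.05) and 7 lower at 20 h (median -0.14; 26.9% called, where 8.95% of all genes were lower). Without replicate 2 of 20 h SA, 5 were lower and 1 was higher. Suclg2, a subunit of succinyl-CoA synthetase, was lower (-0.91 ± 0.12, adjusted p = 3.05e-06), with means of 4.91 ± 0.27 in SA and 5.82 ± 0.11 in OA. Idh3a was lower (-0.45 ± 0.13, adjusted p = 0.0123, but 0.0553 when replicate 1 of OA was left out and 0.0507 when replicate 3 of SA was), Slc25a11 (-0.45 ± 0.09, adjusted p = 0.000973) and the dicarboxylate carrier Slc25a10 (-0.35 ± 0.10, adjusted p = 0.0131). The interaction called Suclg2 alone, by -0.81 ± 0.17 (adjusted p = 0.00308), where 4.98% of all genes were called. SA and OA against vehicle called none at 5 h, with medians of -0.04 and -0.03.

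Among 19 measured transcription factors tied to these genes, LPS against vehicle called 11 higher and 4 lower (median 0.45; 78.9% called, against 22.4% of all genes). Irf1, an interferon regulatory factor, rose by 2.37 ± 0.12 (adjusted p = 5.8e-14) and Nfkb2 by 1.74 ± 0.12 (adjusted p = 1.63e-11), while the lipid-sensing receptor Pparg fell (-1.55 ± 0.09, adjusted p = 1.4e-12) and Myc, which is known to drive Odc1, fell (-1.46 ± 0.10, adjusted p = 9.95e-12). SA against OA called 8 higher and 1 lower at 5 h (median 0.12; 47.4% called, against 5.67%), a count that was 5 to 7 higher when 1 array was left out. Irf1 was higher by 1.72 ± 0.11 (adjusted p = 1.35e-10), Atf4, of the integrated stress response, by 1.01 ± 0.09 (adjusted p = 1.04e-08), and Cebpb by 0.65 ± 0.11 (adjusted p = 0.000492), while Myc was lower (-0.72 ± 0.09, adjusted p = 4.58e-06). At 20 h 4 were higher and 3 lower (median 0.06; 36.8% called, against 16.7%), with Atf4 higher by 1.14 ± 0.09 (adjusted p = 2.41e-10), Irf1 by 0.81 ± 0.11 (adjusted p = 5.25e-06) and Cebpb by 0.76 ± 0.11 (adjusted p = 1.76e-05), and Myc lower (-0.87 ± 0.09, adjusted p = 4.51e-08). The gap in Irf1 changed by -0.92 ± 0.16 from 5 h to 20 h (interaction, adjusted p = 0.000331).

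Against vehicle, SA called 4 of the 19 factors higher and 1 lower (median 0.08; 26.3% called, against 3.33% of all genes). Irf1 rose by 1.44 ± 0.12 (adjusted p = 2.49e-08), Atf4 by 0.67 ± 0.09 (adjusted p = 4.21e-05) and Hif1a, the hypoxia-inducible factor, by 0.46 ± 0.09 (adjusted p = 0.00334), and Myc fell (-0.65 ± 0.10, adjusted p = 9.7e-05). OA called none (median -0.03). The levels of Irf1 were 6.46 ± 0.15 in vehicle, 8.83 ± 0.07 in LPS, 7.89 ± 0.13 in 5 h SA and 6.17 ± 0.19 in 5 h OA. Nfkb1 was not measured by a probe set with a single symbol.

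Arg1 is commonly read beside other genes of alternative activation, of which 15 were measured. SA against OA at 20 h called 4 lower and none higher (median -0.09; 26.7% called, against 16.7% of all genes; 8.95% of all genes were lower). The mannose receptor Mrc1 was lower (-2.13 ± 0.12, adjusted p = 9.41e-13), with means of 6.38 ± 0.18 in SA and 8.51 ± 0.13 in OA. Fibronectin, Fn1, was lower (-1.37 ± 0.12, adjusted p = 3.57e-09), the scavenger receptor Cd163 (-0.61 ± 0.14, adjusted p = 0.00243) and transglutaminase 2, Tgm2 (-0.55 ± 0.10, adjusted p = 0.000204). At 5 h Fn1 alone was called, lower (-0.66 ± 0.12, adjusted p = 0.000644, list median -0.06), where 5.67% of all genes were called. Macrophage markers were lower in the same 20 h comparison, as given above.

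LPS called 6 of the 15 higher and 1 lower (median 0.10; 46.7% called, against 22.4% of all genes). The chemokines Ccl22 and Ccl17 rose by 3.38 ± 0.13 (adjusted p = 6.08e-16) and 2.51 ± 0.18 (adjusted p = 7.4e-11), the interleukin 4 receptor chain Il4ra rose by 0.86 ± 0.10 (adjusted p = 1.61e-07), and Egr2 fell (-0.94 ± 0.10, adjusted p = 3.66e-08).

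A list of 12 genes of the NADPH oxidase and superoxide handling also held Slc7a11, Nqo1, Gclm and Hmox1, which are neither. SA against OA called 4 of the 12 higher at 5 h (median 0.16, 33.3% called, against 5.67% of all genes). These were Slc7a11, Gclm, Hmox1 and Sod2, and no gene of the oxidase was called at 5 h. At 20 h, 6 were higher and 2 lower (median 0.23, 66.7% called, against 16.7%). At 20 h the genes called higher were not oxidase subunits, and the 2 called lower, named after their values were seen, belong to the oxidase: Rac2, its small GTPase (-0.53 ± 0.08, adjusted p = 3.69e-05), and the subunit Ncf1 (-0.38 ± 0.09, adjusted p = 0.00216). The cystine transporter Slc7a11, which pairs with Slc3a2, was higher by 1.59 ± 0.11 at 5 h (adjusted p = 4.79e-10) and by 3.53 ± 0.11 at 20 h (adjusted p = 9.29e-17). At 20 h the NRF2 targets Nqo1 and Gclm were higher by 2.24 ± 0.22 (adjusted p = 1.68e-08) and 1.83 ± 0.08 (adjusted p = 5.19e-14), and catalase, Cat, by 0.95 ± 0.10 (adjusted p = 8.18e-08). LPS called 4 higher and 1 lower (median 0.05; 41.7% called, against 22.4%), with Slc7a11 up by 2.50 ± 0.12 (adjusted p = 2.34e-14) and the mitochondrial superoxide dismutase Sod2 up by 1.07 ± 0.09 (adjusted p = 7.29e-10). With LPS, Ncf1 rose by 0.54 ± 0.09 (adjusted p = 7.53e-05) and Ncf4 fell (-0.31 ± 0.10, adjusted p = 0.0244, but 0.12 and 0.0607 without replicates 2 and 3 of vehicle and 0.071 without replicate 2 of LPS). SA against vehicle called 3 higher (median 0.14, 25% called, against 3.33%). Slc7a11 rose by 1.02 ± 0.12 (adjusted p = 5.17e-06), Hmox1, heme oxygenase 1, by 0.50 ± 0.08 (adjusted p = 0.000183) and Gclm by 0.47 ± 0.09 (adjusted p = 0.00252). All 3 are among the genes named above as neither. No gene of the oxidase or of superoxide handling was called in that comparison.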

How the data were processed

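The authors deposited 1 column of log2 values for each of 23 arrays in 6 groups. Per the submitters' processing notes, RMA was used to make them, and limma is named too. Versions and the role of limma are not given in the sources used here. RMA corrects background, gives arrays a common distribution and summarises probes, so a level near the array median carries little signal and changes there are compressed. Precision is limited by having only 3 or 4 arrays in a group.

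Of 35556 probe sets, 21789 had 1 gene symbol in the probe table, 1621 had several and 12146 were not in it. Only the first kind was used. Where a gene had more than 1 of these (999 genes), that of highest mean stood for it, which gave 19938 genes. Through Entrez identifiers, 21698 were matched to the reference and 0 symbols changed.

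With limma 3.58.1 (R 4.3.3), lmFit and eBayes estimated a mean per group for each gene, with 1 spread over all 6 groups (17 residual degrees of freedom). P-values were two-sided and Benjamini-Hochberg adjusted over all genes of each of 11 comparisons, with a threshold of 0.05. SE and 95% intervals come from the same fit. The fit was tested on simulated data.

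The members and lists were chosen with earlier results of these data known. Named genes were all members, from each list up to 4 called genes of largest change per comparison, and 5 genes most like each member. Alternatives were other variance moderation, scaling, array weights, probe set rules, a filter on the dimmest 25% of genes, a fit of the compared groups, a replicate block and leaving out arrays. Leaving out arrays for the lists was added after seeing the data. Same-numbered arrays were checked for pairing: of 55 pairs, 7 had deviations that correlated over 0.1 (range -0.12 to 0.20). All 7 involved an array of 20 h SA. Between 20 h OA and 20 h SA the values were 0.11, 0.20, 0.03 and 0.11 for replicates 1 to 4. Correlations this low cannot exclude pairing. The main fit treated the arrays as unpaired, and the replicate block was an alternative. Promoters and figures used Python 3.11.15 and matplotlib 3.10.9.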

Additional observations from a re-analysis of the deposited data

Results flagged for a closer look

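Replicate 2 of 20 h SA was far from the rest of its group in Gch1, at 6.35 against 7.08 to 7.09 on the other 3 arrays. Its gap took up 0.988 of the group's range, above the critical value of Dixon's test for 4 arrays. Of 35 pairs of a member and a group of 4 arrays examined, 1 stood out in this way, and chance alone picks about 5%.

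In 2 members the difference between SA and OA was not the same at the 2 times, by the interaction test in limma. For Acod1 the difference was larger at 20 h by 1.14 (adjusted p = 3.89e-05), and for Slc7a2 it changed by -0.70 (adjusted p = 0.00287). Levels of Acod1 in 20 h OA and of Slc7a2 in both 20 h groups lay near the array medians, and the part of this in the interactions was not tested.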

How the results depend on the processing

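No result changed direction with a call under any alternative. Of 1407 values for single members under alternatives, 1375 stayed on the same side of the threshold, 28 lost a call, all of them Odc1 in comparisons with 20 h, and 4 gained one. OA against vehicle called 1 member, Acod1, in place of 0 with a variance trend and robust moderation (adjusted p = 0.00696) and with the replicate block (adjusted p = 0.0462), and the replicate block changed no other count of members called. Counts of genes called moved by over 1.5 times in few cases: for OA against vehicle from 14 to 29 with the variance trend, to 7 in a fit of only the compared groups, and to between 7 and 16 without 1 array (7 without replicate 3 and 9 without replicate 2 of vehicle). For SA against vehicle the count went from 664 to 373 in the fit of the compared groups and to between 389 and 580 without 1 array (389 without replicate 2 of vehicle). For SA against OA at 5 h it went from 1131 to 660 in the fit of the compared groups, and for 20 h OA against vehicle from 937 to 1537 with array weights. Centring arrays moved the median of all genes by at most 0.054. With centring, the share of higher calls went from 41.2% to 52% for LPS against vehicle and from 58.7% to 47.5% for SA against LPS. With quantile normalisation it went from 28.6% to 38.9% for OA against vehicle, where the main fit called only 14 genes, 4 of them higher. The causes of these moves were not tested. Arrays near background limit Arg1, Arg2, Nos2 outside LPS, and the 20 h levels of Slc7a2.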
